A study of Mus musculus with 16 samples.

Results

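Phosphatidylcholine is the main phospholipid of cell membranes, lipoproteins and bile. The CDP-choline pathway makes it in 3 steps: choline kinase phosphorylates choline, a cytidylyl-transferase activates phosphocholine to CDP-choline, and a phosphotransferase joins the activated head group to diacylglycerol. A parallel CDP-ethanolamine pathway makes phosphatidylethanolamine, and hepatocytes also methylate phosphatidylethanolamine to phosphatidylcholine through Pemt. The genes described here are Chka, which encodes choline kinase alpha, and 7 others that act in these routes: Pcyt1a, Pcyt2, Chpt1, Cept1, Pemt, Etnk1 and Etnk2. They were chosen by name. Chka was picked because its signal was already known to differ from wild type in livers without Rassf1a, so its values in those comparisons are a description with no test. Of the 8 genes, 7 had a probe set that names that gene alone, 1 each, and these 7 passed the filter on dim probe sets, among 13152 genes tested in all. Etnk2, the second ethanolamine kinase gene, was not analysed here.

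Liver RNA was measured on Affymetrix whole-transcript arrays in mice of strain 129. There were 4 genotypes with 4 arrays each: Rassf1a-/-, Sav1+/-, Rassf1a-/- Sav1+/- (called the double genotype) and wild type. Rassf1a is an isoform of the tumour suppressor gene Rassf1, and Sav1 encodes an adaptor of the Hippo pathway kinases. Sex, age and time of collection are not given in the labels, nor whether the arrays of a genotype come from separate animals. Each altered genotype held arrays of high and of low signal from Y-linked genes, described below. Its 4 arrays therefore do not all come from 1 animal, but the number of animals is not known. A p-value reflects only how these samples spread, which may be partly technical, or wholly so in wild type. All values are the authors' log2 signals, in which 1 unit is a doubling, and each probe set is compared only with itself across arrays.

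The 16 arrays had medians of 7.20 to 7.51 over all 35556 probe sets. Sav1 averaged 7.64 ± 0.37 in Sav1+/- livers and 7.65 ± 0.27 in double-genotype livers, against 8.61 ± 0.14 in Rassf1a-/- and 8.53 ± 0.11 in wild-type livers (log2 signal, SD, n = 4 each). Rassf1 averaged 7.20 ± 0.20 in Rassf1a-/-, 7.56 ± 0.10 in double-genotype, 7.52 ± 0.50 in Sav1+/- and 7.44 ± 0.17 in wild-type livers. Its probe set lay below the filter level in 2 Rassf1a-/-, 2 Sav1+/- and 1 wild-type arrays. The annotation does not tie that probe set to the 1A isoform, so it checks nothing about the Rassf1a genotype. In 5 arrays the mean of 3 Y-linked genes was 8.87 or more, and in the other 11 it was 4.17 or less. The 5, called the high-Y arrays, were Rassf1a-/- replicate 2, Sav1+/- replicates 3 and 4 and double-genotype replicates 1 and 2, and no wild-type array was among them. All 6 measured hepatocyte markers were above the filter level in all 16 arrays. Among markers of other liver cells, the cholangiocyte genes Krt19, Krt7 and Sox9 lay below the filter, and Epcam and Cldn7 passed it. The lymphocyte and neutrophil genes Ms4a1, Nkg7 and S100a8 lay below it, and Cd3e and S100a9 passed it. All 9 Kupffer cell and macrophage, all 6 stellate cell and all 6 endothelial markers passed it. No marker was called in any genotype comparison or with the Y-linked mean.

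Chka catalyses the entry of choline into the pathway. Its promoter and those of Chpt1 and the clock gene Ciart are shown because Chka and Ciart ran opposite to each other over the arrays, and because Chpt1 passed a test against the Y-linked signal. Each is the 250 bases before the annotated start, 5′ to 3′ on the gene's strand, from RefSeq (GRCm38.p6). Chka lies at chr19:3851523-3851772 on the plus strand, Chpt1 at chr10:88503971-88504220 on the minus strand and Ciart at chr3:95882229-95882478 on the minus strand. Capitals mark the E-box CACGTG, which the clock activators CLOCK and BMAL1 bind, and the CCAAT box on either strand (ATTGG on the other).
Chka: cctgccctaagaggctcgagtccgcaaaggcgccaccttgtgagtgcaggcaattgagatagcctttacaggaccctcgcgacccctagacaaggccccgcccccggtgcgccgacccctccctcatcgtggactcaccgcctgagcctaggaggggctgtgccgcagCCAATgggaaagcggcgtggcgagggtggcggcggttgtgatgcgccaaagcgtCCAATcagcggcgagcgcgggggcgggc
Chpt1: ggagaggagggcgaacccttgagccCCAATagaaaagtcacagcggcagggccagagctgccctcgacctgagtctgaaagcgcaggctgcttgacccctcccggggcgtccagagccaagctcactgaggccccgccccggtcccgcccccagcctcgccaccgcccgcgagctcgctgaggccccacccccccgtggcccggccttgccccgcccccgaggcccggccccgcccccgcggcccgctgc
Ciart: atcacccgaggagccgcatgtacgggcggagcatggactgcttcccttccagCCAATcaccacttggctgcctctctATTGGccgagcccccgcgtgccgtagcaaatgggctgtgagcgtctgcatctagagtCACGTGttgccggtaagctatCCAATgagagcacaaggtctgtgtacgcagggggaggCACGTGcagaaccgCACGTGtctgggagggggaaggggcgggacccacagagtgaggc

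The Chka window held 2 CCAAT boxes, whose first bases lie 82 and 28 bases before the start, and no E-box. The Ciart window held 3 E-boxes, starting 116, 58 and 44 bases before the start. Of the 4 genes most opposite to Chka over the arrays, named below, Ciart alone held an E-box. Among the genes most like Chka, none of the 5 with an entry in the promoter table held one. Of 32851 such windows in the table, 6.02% held CACGTG and 33.8% held CCAAT on either strand. None of the 7 genes of the set with an entry in the promoter table held an E-box, nor the D-box letters TTATGTAA (0.819% of all windows) or TTACGTAA (0.113%), nor the nuclear receptor half-site AGGTCA (14.0%), nor the TATA box TATAAA (12.4%). Of the 7, Chka, Chpt1 and Pemt held a CCAAT box, and 6 held the GC box GGGCGG (32.7% of all windows), which is left in lower case. A gene with several annotated starts counted if any of its windows held the letters, while the shares are per window. Pcyt1a and Cept1 held no GC box at start 3, and Pemt no CCAAT box at start 2. Pcyt2 had no entry. Both strands were searched. Absence here says only that these letters are not in these windows.

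Chka signal was high in all 8 arrays without Rassf1a and low in all 8 arrays with it. It was 10.24, 10.13, 9.72 and 10.02 in Rassf1a-/- livers. It was 9.54, 10.47, 10.03 and 9.56 in double-genotype livers. In livers with intact Rassf1a it was 7.48, 8.59, 8.14 and 8.47 with 1 Sav1 copy lost, and 8.30, 8.49, 8.01 and 8.20 in wild type. The lowest array without Rassf1a lay 0.95 above the highest array with it, a gap wider than the SD within a genotype (0.37). Of 13152 genes, 0.776% separated the 8 arrays without Rassf1a from the 8 with it in this way, in either direction.

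Relative to wild type, Chka was higher by 1.78 in Rassf1a-/- (SE 0.24, 3.43-fold) and by 1.65 in double-genotype livers (SE 0.24, 3.14-fold), 2 comparisons that share the wild-type arrays. Between the double genotype and Sav1+/- it was 1.73 (SE 0.24, 3.32-fold). Averaged over both Sav1 states, Chka was higher by 1.76 without Rassf1a (SE 0.17, 3.38-fold). With the 5 high-Y arrays left out, these values were 1.74, 1.54, 1.76 and 1.75. Over the 16 fits that each left out 1 array, the first lay between 1.70 and 1.88 and the second between 1.46 and 1.77. The mean Kupffer cell and macrophage marker level ran from 9.21 to 10.17 in Rassf1a-/- and 9.89 to 10.79 in double-genotype arrays. It ran from 9.57 to 10.95 in Sav1+/- and 9.49 to 10.36 in wild-type arrays. What part cell composition has in the Chka difference was not tested. In whole liver, fewer cells of a type and less RNA per cell cannot be told apart.

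Chka was not chosen on the Sav1 comparisons, and no change passed there. They reuse arrays on which it was chosen as high in both genotypes without Rassf1a, so their p-values are no independent test. The order of the group means was Rassf1a-/- (10.03 ± 0.22), double genotype (9.90 ± 0.44), wild type (8.25 ± 0.20) and Sav1+/- (8.17 ± 0.50; SD, n = 4 each), and the first pair and the last pair each overlapped. Sav1+/- minus wild type was -0.08 (SE 0.24, limma adjusted p = 0.964), with a 95% interval of -0.58 to 0.42. The sign turned to 0.15 without Sav1+/- replicate 1, the lowest array. The double genotype minus Rassf1a-/- was -0.13 (SE 0.24, limma adjusted p = 0.801), with an interval of -0.63 to 0.37. The interaction, which asks whether the Rassf1a difference depends on Sav1, was -0.05 (SE 0.34, limma adjusted p = 0.977), and its interval of -0.76 to 0.66 leaves room for effects of either sign.

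**Figure D1:**
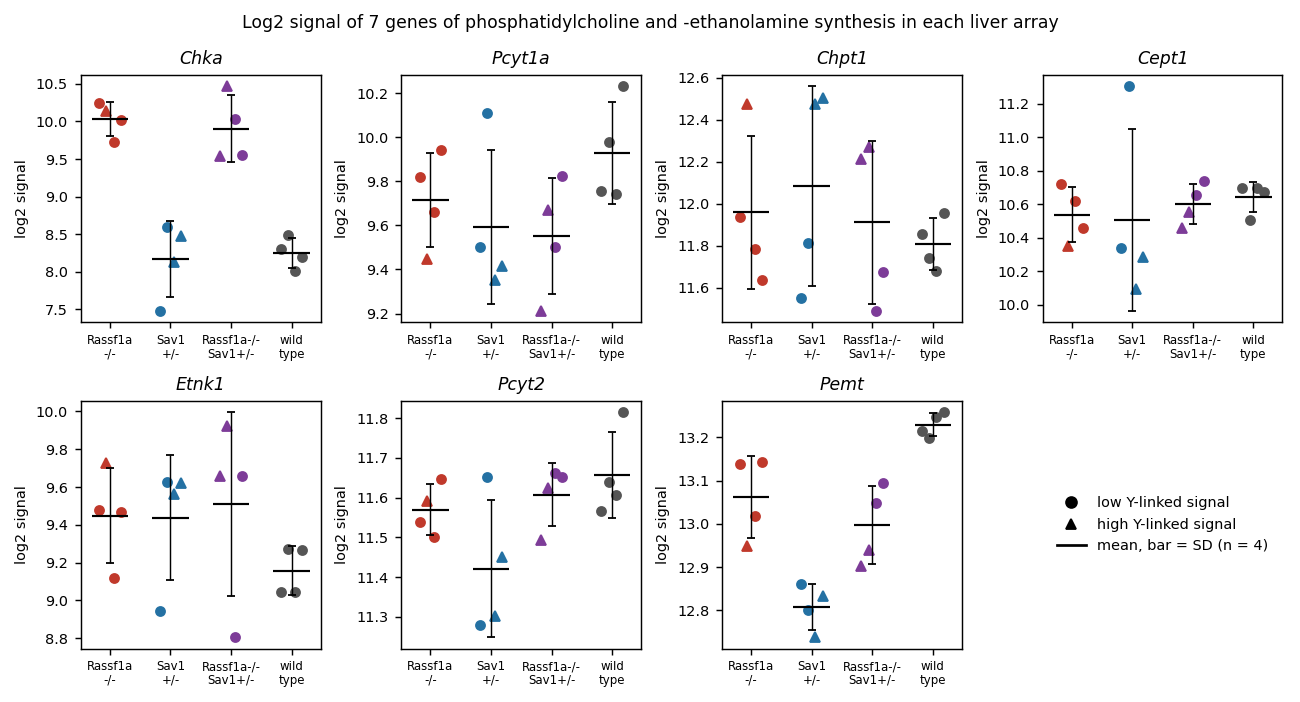
Log2 signal (vertical axis, a scale of its own in each panel) of 7 genes in each of 16 liver arrays, grouped as Rassf1a-/-, Sav1+/-, Rassf1a-/- Sav1+/- and wild type. Points are arrays, triangles the 5 arrays of high Y-linked signal, lines means and bars SD (n = 4). Chka lies at 9.54 or above in the 8 arrays without Rassf1a and at 8.59 or below in the other 8, while Pemt is highest in the 4 wild-type arrays.

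None of the other 6 genes passed in any of the 8 genotype comparisons. In Rassf1a-/- livers against wild type 0 of 6 were called by limma, with 0 at an unadjusted p under 0.05, where 0.7% of all genes were called. In double-genotype livers it was 0 of 6, with 1 at an unadjusted p under 0.05 (0.821% of all genes called, 1793 at an unadjusted p under 0.05). In Sav1+/- livers it was 0 of 6, with 1 (0% of all genes called, 1204 at an unadjusted p under 0.05). The double genotype gave 0 of 6 against Rassf1a-/- (0.0076% of all genes called) and 0 of 6 against Sav1+/- (0.836%), with 0 at an unadjusted p under 0.05 in each. The averaged Rassf1a effect (2.23% of all genes called) gave 0 of 6 with 0. The averaged Sav1 effect (0.0228% of all genes called) and the interaction (0%) gave 0 of 6 with 1 each, where 1949 and 1236 of all genes had an unadjusted p under 0.05. The values follow in the order of the pathway.

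Pcyt1a encodes the cytidylyl-transferase that sets the rate of the CDP-choline pathway. Its signal was 9.82, 9.45, 9.66 and 9.94 in Rassf1a-/-, 9.50, 10.11, 9.35 and 9.41 in Sav1+/-, 9.21, 9.67, 9.50 and 9.83 in double-genotype and 9.75, 9.98, 9.74 and 10.23 in wild-type livers. All 3 altered genotypes averaged below wild type, and each overlapped it. The differences were -0.21 in Rassf1a-/- (SE 0.19, limma adjusted p = 0.694), -0.33 in Sav1+/- (adjusted p = 0.642) and -0.37 in double-genotype livers (adjusted p = 0.395). Their intervals reach down to -0.60, -0.72 and -0.77, so falls of that size are within the error of these estimates.

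Chpt1 and Cept1 encode the phosphotransferases of the last step. Chpt1, which uses CDP-choline, was at 11.94, 12.48, 11.79 and 11.64 in Rassf1a-/-, 11.55, 11.81, 12.47 and 12.50 in Sav1+/-, 12.22, 12.27, 11.49 and 11.67 in double-genotype and 11.86, 11.74, 11.68 and 11.96 in wild-type livers. Its spread within the altered genotypes (SD 0.36 to 0.48) was wide beside that in wild type (0.12), and no genotype difference passed (adjusted p of 0.792 to 0.909 against wild type). The differences from wild type were 0.15 in Rassf1a-/-, 0.27 in Sav1+/- and 0.10 in double-genotype livers, and each was negative once the high-Y arrays were left out, at -0.02, -0.13 and -0.23. Cept1, which takes both CDP-choline and CDP-ethanolamine, was at 10.72, 10.35, 10.62 and 10.46 in Rassf1a-/-, 10.34, 11.31, 10.09 and 10.29 in Sav1+/-, 10.46, 10.55, 10.66 and 10.74 in double-genotype and 10.70, 10.51, 10.70 and 10.67 in wild-type livers. Sav1+/- replicate 2 was the highest of the 16. Its differences from wild type were -0.11, -0.14 and -0.04 in the same order of altered genotypes (SE 0.20 each, adjusted p of 0.845 to 0.955). With the high-Y arrays left out, Sav1+/- livers gave 0.18 and double-genotype livers 0.05.

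Etnk1 and Pcyt2 serve the ethanolamine branch. Etnk1, an ethanolamine kinase gene, was at 9.48, 9.73, 9.12 and 9.47 in Rassf1a-/-, 8.94, 9.63, 9.56 and 9.62 in Sav1+/-, 9.66, 9.92, 8.80 and 9.66 in double-genotype and 9.05, 9.27, 9.04 and 9.27 in wild-type livers. In each altered genotype 1 array lay within or below the wild-type range and 3 lay above it, and the differences of 0.29, 0.28 and 0.35 (SE 0.22 each) did not pass (adjusted p of 0.511 to 0.753). Pcyt2, the cytidylyl-transferase gene of that branch, was at 11.54, 11.59, 11.50 and 11.65 in Rassf1a-/-, 11.28, 11.65, 11.30 and 11.45 in Sav1+/-, 11.49, 11.62, 11.66 and 11.65 in double-genotype and 11.57, 11.64, 11.61 and 11.82 in wild-type livers. In Sav1+/- livers 3 of 4 arrays lay below all wild-type arrays, and the difference of -0.24 (SE 0.12) had an unadjusted limma p of 0.0567 and an adjusted p of 0.562. The Pcyt2 differences in Rassf1a-/- (-0.09) and double-genotype livers (-0.05) were smaller than their SE of 0.12.

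**Figure D2:**
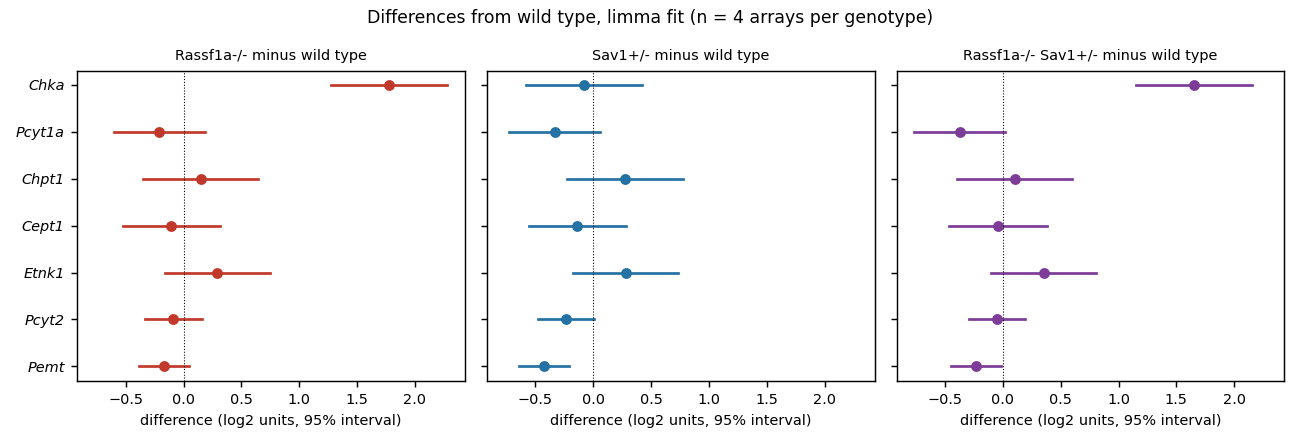
Differences from wild type in log2 units (horizontal axis) for 7 genes in Rassf1a-/-, Sav1+/- and double-genotype livers. Points are limma estimates and lines 95% intervals (n = 4 arrays per genotype). The Chka intervals run from 1.28 to 2.28 and from 1.15 to 2.15 in the 2 genotypes without Rassf1a and from -0.58 to 0.42 in Sav1+/- livers, where the Pemt interval runs from -0.64 to -0.21.

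Pemt, the methyltransferase gene that gives hepatocytes their second route to phosphatidylcholine, showed small differences with little spread. It was at 13.14, 12.95, 13.02 and 13.14 in Rassf1a-/-, 12.86, 12.80, 12.74 and 12.83 in Sav1+/-, 12.90, 12.94, 13.05 and 13.10 in double-genotype and 13.21, 13.20, 13.25 and 13.26 in wild-type livers. All 12 arrays of altered genotypes lay below all 4 wild-type arrays, as 0.388% of all genes did. The order of the means was wild type (13.23 ± 0.03), Rassf1a-/- (13.06 ± 0.09), double genotype (13.00 ± 0.09) and Sav1+/- (12.81 ± 0.05; SD, n = 4 each). Only Rassf1a-/- and the double genotype overlapped among neighbours.

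None of the Pemt differences passed over all genes. Sav1+/- minus wild type was -0.42 (SE 0.10, 1.34-fold, 4 of 4 arrays below all wild-type arrays, limma unadjusted p = 0.000734, adjusted p = 0.182), where groups did not overlap in 4.68% of all genes. Rassf1a-/- minus wild type was -0.17 (SE 0.10, adjusted p = 0.595) and the double genotype minus wild type -0.23 (SE 0.10, adjusted p = 0.330), where 10.9% and 10.8% of all genes did not overlap. The double genotype minus Sav1+/- was 0.19 (SE 0.10, adjusted p = 0.411), again without overlap, as in 6.46% of genes. Loss of 1 Sav1 copy averaged over both Rassf1a states gave -0.24 (SE 0.07, adjusted p = 0.151), or -0.29 with an adjusted p of 0.0143 when arrays were weighted by their quality. That weighting called 2 of the 7 genes in this comparison, Pcyt1a and Pemt, against 0 without it, and 1517 of all 13152 genes, against 3 without it, so its 2 calls are not particular to these genes.

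Within genotypes some of the genes varied together over the 16 arrays, given here as a description over arrays that share preparation and scale. The most extreme pairs are named. After subtraction of genotype means, Pearson's r was 0.79 for Pcyt1a with Pcyt2, 0.71 for Pcyt1a with Cept1 and 0.63 for Pcyt2 with Cept1. Sav1+/- replicate 2 was high in all 3, and without it these values were 0.68, 0.51 and 0.31. Chpt1 and Etnk1 had an r of 0.71, and Chpt1 ran opposite to Pemt (-0.68). Subtraction of genotype means leaves differences in Y-linked signal in place, and Chpt1 was called with that signal, as described below. For Chka the highest value was 0.53, with Pcyt2, and without Sav1+/- replicate 2 that pair had 0.43 and the highest was 0.50, with Chpt1.

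Several genes of the circadian clock had profiles close to that of Chka or its mirror image. The likeness used was Pearson's r with Chka over the 16 arrays, described without a test since the arrays form separate sets by Rassf1a state. Its highest values belonged to Asap2 (0.98), Denn2b (0.98), Arntl (0.97), Ddc (0.96), Clpx (0.96) and Pnrc1 (0.96). Arntl encodes the clock activator BMAL1, Ddc an enzyme of amine synthesis and Clpx a subunit of a mitochondrial protease. The lowest belonged to Ciart (-0.95), Usp2 (-0.94), Dbp (-0.92) and Per3 (-0.92), where Ciart and Per3 are repressors in the clock loop and Dbp is a clock output factor. In all, 38 genes lay above 0.9 and 6 below -0.9.

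Arntl averaged 10.08 ± 0.13 in Rassf1a-/- and 9.72 ± 0.40 in double-genotype livers, against 6.71 ± 0.69 in Sav1+/- and 6.71 ± 0.73 in wild-type livers (SD, n = 4 each), where 3 of 4 arrays in each lay below the filter level. Ciart averaged 6.02 ± 0.41 in Rassf1a-/- and 6.17 ± 1.51 in double-genotype livers, against 9.81 ± 0.42 in Sav1+/- and 10.18 ± 0.33 in wild-type livers. Dbp (8.05 ± 0.59, 9.02 ± 1.29, 11.19 ± 0.21 and 11.22 ± 0.49 in the same order) and Per2 (7.71 ± 0.58, 8.21 ± 0.55, 9.43 ± 0.25 and 9.93 ± 0.26) were lower without Rassf1a, as Ciart was. Among 14 clock genes tested, 3 rose and 8 fell without Rassf1a, averaged over Sav1 states (median -0.74, against 0.03 over all genes; 2.23% of all genes called). What part clock phase has in the Chka difference was not tested, and the labels give no time of collection.

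Part of the likeness held among arrays of the same Rassf1a state. Within the 8 arrays of intact Rassf1a, r with Chka was 0.77 for Arntl, 0.89 for Asap2 and 0.86 for Denn2b, where the median over all genes was 0.29. Within the 8 arrays without Rassf1a it was 0.82, 0.91 and 0.84, where the median over all genes was 0.02. In the same 2 sets r was 0.61 and 0.71 for Ddc, 0.80 and 0.52 for Clpx and 0.53 and 0.86 for Pnrc1. These 6 genes were picked for their r over the same 16 arrays. Leaving out the 2 arrays farthest from the median of Arntl gave 0.70 and 0.47 for Arntl, and the same step gave 0.53 and 0.84 for Asap2. It gave 0.74 and 0.67 for Denn2b, 0.49 and 0.28 for Ddc, 0.64 and 0.66 for Clpx and 0.54 and 0.70 for Pnrc1. Ciart had -0.24 among arrays of intact Rassf1a and -0.77 among those without it, and Usp2 had 0.10 and -0.74. Dbp had -0.50 and -0.78, Per3 -0.0025 and -0.76, and Per2 0.17 and -0.37. Without the 2 arrays farthest from each gene's median, Ciart had 0.03 and -0.88 and Usp2 0.11 and -0.79. In that step Dbp had -0.68 and -0.29, Per3 -0.10 and -0.52, and Per2 0.62 and -0.63. Ciart lay below the filter level in 4 Rassf1a-/- and 3 double-genotype arrays, and Usp2 in 2 double-genotype arrays. Per3 lay below it in 2 Rassf1a-/- and 2 double-genotype arrays, and Asap2 in 3 Sav1+/- and 3 wild-type arrays. Each of these r values rests on at most 8 arrays, and Sav1+/- replicate 1, lowest for Chka, was also lowest for Arntl.

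**Figure D3:**
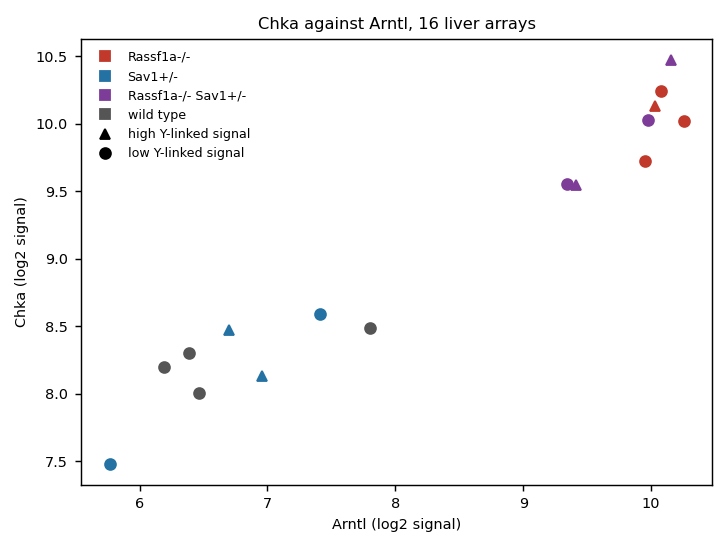
Chka (vertical axis) against Arntl (horizontal axis), both as log2 signal, in 16 liver arrays coloured by genotype, with triangles for arrays of high Y-linked signal. The 8 arrays without Rassf1a sit at the upper right (Chka 9.54 to 10.47) and the 8 with it at the lower left (Chka 7.48 to 8.59).

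Other genes of choline and phospholipid metabolism were taken from 7 lists of 65 genes, of which 55 were tested, 5 lay below the filter and 5 were not analysed here. In Rassf1a-/- livers against wild type 1 of 55 was called, lower (0.266% of all genes called lower; median -0.13, against -0.01 over all genes). None was called in Sav1+/- livers (median -0.18, smallest adjusted p 0.336 for Agpat1) or in double-genotype livers (median -0.05, smallest adjusted p 0.0649 for Lpin2). None was called by limma for the double genotype against Rassf1a-/- (smallest adjusted p 0.136, Agpat1) or against Sav1+/- (0.0819, Lpin1), for the averaged Sav1 effect (0.218, Agpat2) or for the interaction (0.316, Agpat1). Averaged over Sav1 states, 2 of 55 rose and 3 fell without Rassf1a, where 1.76% of all genes were called higher and 0.471% lower.

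Genes that supply diacylglycerol, the acceptor of the last step, gave the 1 call in Rassf1a-/- livers and 2 of the 3 falls in the averaged comparison. Agpat1, an acyltransferase gene that makes phosphatidic acid, fell in Rassf1a-/- livers (7.93 to 8.20, against 8.49 to 8.99 in wild-type livers; -0.74, SE 0.13, limma adjusted p = 0.00782) and passed in all 16 fits without 1 array. With the high-Y arrays left out it was -0.77 (adjusted p = 0.0681). That fit kept only 3 Rassf1a-/-, 2 Sav1+/- and 2 double-genotype arrays. Over all arrays, Agpat1 in double-genotype livers was -0.31 (adjusted p = 0.310). Lpin1, whose product dephosphorylates phosphatidic acid to diacylglycerol, fell 2.07-fold without Rassf1a in the averaged comparison (-1.05, SE 0.21, limma adjusted p = 0.0108). It averaged 9.78 ± 0.27 in Rassf1a-/- and 9.90 ± 0.40 in double-genotype livers, against 11.03 ± 0.66 in Sav1+/- and 10.75 ± 0.42 in wild-type livers. Its paralog Lpin2 fell by 0.55 on the log2 scale (SE 0.12, limma adjusted p = 0.0172), with 10.75 ± 0.15 in Rassf1a-/- and 10.69 ± 0.29 in double-genotype livers, against 11.17 ± 0.17 in Sav1+/- and 11.37 ± 0.28 in wild-type livers. The other 9 tested genes of that list, among them Dgat1 and Dgat2, did not pass in either comparison.

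Among genes of phosphatidylcholine breakdown, transfer and export, 1 of 14 rose and 1 fell without Rassf1a, averaged over Sav1 states. Pld1, a phospholipase D gene, rose (0.66, SE 0.13, limma adjusted p = 0.0112), at 7.96 ± 0.29 in Rassf1a-/- and 7.76 ± 0.26 in double-genotype livers, against 7.11 ± 0.32 in Sav1+/- and 7.29 ± 0.18 in wild-type livers. In the last 2 groups 3 and 2 of 4 arrays lay below the filter level. Gde1, a glycerophosphodiesterase gene, fell by 0.52 on the log2 scale (SE 0.11, limma adjusted p = 0.0153), at 10.11 ± 0.15 in Rassf1a-/- and 10.17 ± 0.26 in double-genotype livers, against 10.56 ± 0.25 in Sav1+/- and 10.76 ± 0.13 in wild-type livers. Selenoi, which encodes the ethanolamine phosphotransferase, rose (0.51, SE 0.12, limma adjusted p = 0.0370) but held in only 7 of the 16 fits without 1 array and failed without the filter (adjusted p = 0.0731). It averaged 11.16 ± 0.12 in Rassf1a-/- and 11.38 ± 0.20 in double-genotype livers, against 10.76 ± 0.43 in Sav1+/- and 10.75 ± 0.07 in wild-type livers. Lpin1, Lpin2, Pld1, Gde1 and Selenoi kept their direction with the high-Y arrays left out, at -1.01, -0.49, 0.71, -0.55 and 0.52. None passed there (adjusted p of 0.0616 to 0.230), in a fit with fewer arrays in each altered genotype.

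**Figure D4:**
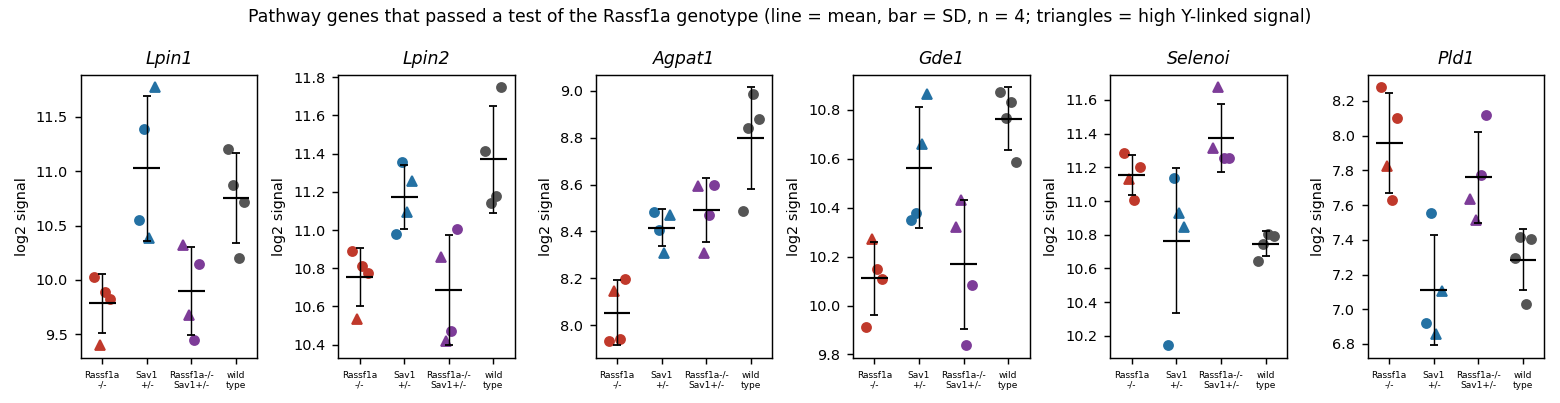
Log2 signal (vertical axis) of 6 genes of choline and phospholipid metabolism in Rassf1a-/-, Sav1+/-, double-genotype and wild-type arrays, with lines for means and bars for SD (n = 4). Lpin1, Lpin2 and Gde1 average lower and Selenoi and Pld1 higher in both genotypes without Rassf1a, while Agpat1 lies lowest in Rassf1a-/- livers at 7.93 to 8.20.

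The remaining lists held no called gene in the comparisons against wild type or in the averaged Rassf1a comparison. For the phosphatidylserine route (3 genes) the smallest p belonged to Ptdss2 in Rassf1a-/- (-0.17, adjusted p = 0.770), Pisd in Sav1+/- (-0.34, 0.438) and Ptdss1 in double-genotype livers (-0.35, 0.339). For phospholipid remodelling (7 genes) it was Lpcat3 in Rassf1a-/- (-0.45, 0.295) and Sav1+/- livers (-0.40, 0.434) and Lpcat2 in double-genotype livers (0.49, 0.507). For choline transport (6 genes) it was Slc44a4 (-0.28, 0.586), Slc44a3 (-0.46, 0.544) and Slc44a1 (0.38, 0.342) in the same order. For choline oxidation and the methyl cycle (9 genes) it was Bhmt, which remethylates homocysteine with the choline product betaine, in Rassf1a-/- (0.60, 0.350) and double-genotype livers (0.48, 0.367), and Bhmt2 in Sav1+/- livers (-0.29, 0.461).

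Chpt1 signal ran with the Y-linked signal, and no wild-type array had high Y-linked signal. Among arrays of the same genotype its signal rose by 0.12 for each log2 unit of the Y-linked mean (SE 0.02, limma adjusted p = 0.00145), the only one of the 7 genes to pass, where 4.71% of all genes did. The high and low arrays were 12.48 against 11.79 on average in Rassf1a-/- livers (n = 1 and 3), 12.49 against 11.68 in Sav1+/- livers (n = 2 and 2) and 12.24 against 11.58 in double-genotype livers (n = 2 and 2). All 5 arrays of high Y-linked signal (12.22 to 12.50) lay above all 11 others (11.49 to 11.96), a separation seen in 2.62% of all genes. The call held whichever array was left out (largest adjusted p 0.0123), and was 0.72 as a difference between the 2 classes of array (adjusted p = 0.000176). Chka did not pass in this test (0.03 per unit, SE 0.03, adjusted p = 0.850), nor did Pcyt1a (-0.06, 0.221), Cept1 (-0.06, 0.259), Etnk1 (0.06, 0.400), Pemt (-0.02, 0.734) or Pcyt2 (-0.01, 0.950).

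Of the 55 other pathway genes, 2 rose and 2 fell with the Y-linked mean, where 1.69% of all genes rose and 3.02% fell. Phospho1, a phosphatase gene for phosphocholine and phosphoethanolamine, rose by 0.24 per unit (SE 0.03, limma adjusted p = 0.000111), at 8.83 to 9.79 in the 5 high arrays and 8.48 or less in the 11 low ones. Etnppl, the phosphoethanolamine lyase gene, rose by 0.17 (SE 0.04, adjusted p = 0.0128, or 0.0518 without double-genotype replicate 4). Pctp, which encodes a phosphatidylcholine transfer protein, fell by 0.12 (SE 0.02, limma adjusted p = 0.00168). Flvcr2 fell by 0.22 (SE 0.05, adjusted p = 0.0226) and held in 11 of 16 such fits, the largest adjusted p being 0.0941 without double-genotype replicate 4. The high arrays lay at 6.53 to 7.33 for Flvcr2, around the filter level of 7.16 to 7.44. The labels give no sex, and all 5 arrays are of altered genotypes, so Y-linked signal is partly confounded with comparisons against wild type. The X-linked gene Xist ran the other way, at 2.12 to 4.31 in the 5 high-Y arrays and 10.34 to 11.47 in the other 11.

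**Figure D5:**
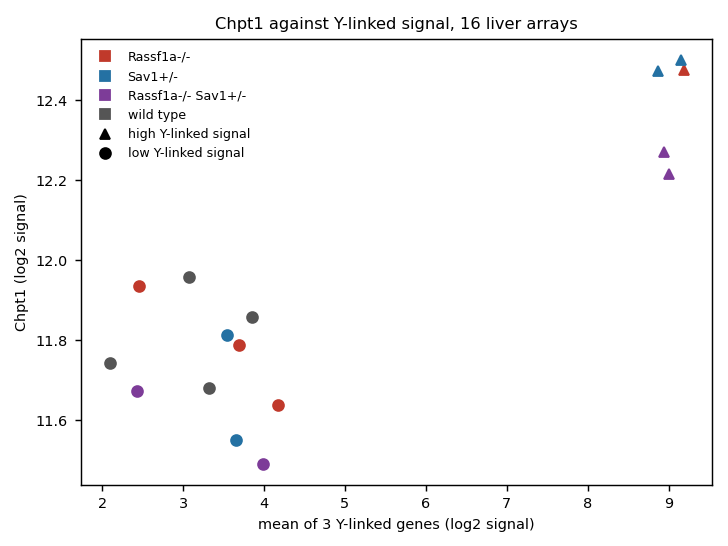
Chpt1 log2 signal (vertical axis) against the mean log2 signal of 3 Y-linked genes (horizontal axis) in 16 liver arrays coloured by genotype. The 5 arrays with a Y-linked mean of 8.87 or more (triangles) have Chpt1 at 12.22 to 12.50, above the other 11 at 11.49 to 11.96.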

How the data were processed

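Total liver RNA was labelled with biotin for Affymetrix whole-transcript arrays, per the labels' protocols. The deposited values are log2 signals per probe set, and the submitters' processing notes name Affymetrix Expression Console as the tool. No version, summarisation or normalization method is given in the sources used here. The number of arrays limits the precision.

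Gene names came from the platform annotation, updated by gene ID through RefSeq (GRCm38.p6). Of 23410 probe sets with a gene, 1621 name several and were left out. Of the other 21789, 21698 matched RefSeq. Probe sets had to reach the 40th percentile of the array (7.16 to 7.44) in at least 4 arrays, and the one with the highest mean stood for its gene, which left 13152 genes. Limma 3.58.1 (R 4.3.3) fitted 4 genotype means, or these with the Y-linked mean, with two-sided tests and calls at a Benjamini-Hochberg adjusted p under 0.05 over all genes. The fit was tested on simulated data. Replicates were numbered in order of accession. Every measured member is described. Of the lists, called genes are named, or else the gene with the smallest p, and for likeness to Chka the 6 highest and 4 lowest. Arntl, Ciart, Dbp, Per2, Sav1 and Rassf1 are always named. The members and lists were chosen with earlier results of these data known. The alternatives are listed in the closing section. Marker genes of hepatocytes, Kupffer cells and macrophages, cholangiocytes, stellate cells and fibroblasts, endothelial cells, and lymphocytes and neutrophils were read in every comparison.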

Additional observations from a re-analysis of the deposited data

Results flagged for a closer look

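In wild-type livers replicate 2 lay apart from the others for Cept1, at 10.51 against 10.67 to 10.70. In Sav1+/- livers replicate 1 lay apart for Etnk1, at 8.94 against 9.56 to 9.63. Both were found in a screen of 28 groups of 4 arrays for a value far from the rest, and chance alone gives about 1 in 20.

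Pemt ran in opposite directions with Rassf1a loss in the 2 Sav1 states. All Rassf1a-/- arrays lay below all wild-type arrays (-0.17), and all double-genotype arrays lay above all Sav1+/- arrays (0.19). Of all genes, 0.182% showed such opposite separations. The difference between the effects was 0.36 (SE 0.15, limma unadjusted p = 0.0251) and did not pass over all genes (adjusted p = 0.468).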

How the results depend on the processing

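No paired analysis was possible because replicates carry no numbers in the labels. The alternatives were no filter, a 60th-percentile filter, probe sets averaged per gene or each tested alone, quantile normalization, only the compared genotypes, trend and robust moderation, array weights, the Y-linked mean as a covariate, omission of the high-Y arrays, each array left out in turn and, chosen after seeing the data, 2 classes of Y-linked signal. Among the 6 genes other than Chka, no count of calls moved in the 16 fits without 1 array. For the double genotype against Sav1+/-, 0 of the 7 genes and 1 of all genes were called with only those genotypes fitted, and 0 of 7 and 0 of all genes with the high-Y arrays left out, against 110 of all genes otherwise. Against wild type with the high-Y arrays left out it was 0 of 7 and 6 of all genes, against 108. Calls of Chka in these comparisons are no test, since it was chosen on them. Array weights gave 2 of 7 and 1517 of all genes for the averaged Sav1 effect, against 0 and 3.

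Signs of small differences turned. With the Y-linked covariate Cept1 was 0.0059 (Rassf1a-/-), 0.15 (double genotype) and 0.065 (Sav1+/-) against wild type, and Chpt1 -0.061, -0.25 and -0.10. Without the high-Y arrays Cept1 was 0.054 (double genotype) and 0.18 (Sav1+/-), and Chpt1 -0.023 (Rassf1a-/-), -0.23 (double genotype) and -0.13 (Sav1+/-). The Chka interaction was 0.0036 after quantile normalization, 0.020 with the covariate and 0.013 without the high-Y arrays, and its Y-linked slope was -0.0072 with array weights. In fits without 1 array the Chka interaction ran from -0.28 to 0.093, Chka in Sav1+/- livers from -0.22 to 0.15 and the averaged Sav1 effect from -0.20 to 0.011. Against wild type, Chpt1 ran from -0.023 to 0.26 (Rassf1a-/-) and -0.017 to 0.24 (double genotype), Cept1 from -0.088 to 0.0056 (double genotype) and -0.40 to 0.0023 (Sav1+/-), and Pcyt2 from -0.079 to 0.0036 (double genotype). The causes were not tested. Of 1163 single-gene values under another setting, 1112 kept direction and side of the threshold.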
